A study of Arabidopsis thaliana with 20 samples.

Results

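Heat shock proteins and the factors that switch them on were followed through 10 Arabidopsis thaliana genes, picked by locus from the 34262 genes counted in each of 20 RNA-seq libraries. The chaperones were HSP70 (AT3G12580), HSP90.1 (AT5G52640), HSP101 (AT1G74310), HSP21 (AT4G27670) and HSP17.6II (AT5G12020). The regulators were HSFA2 (AT2G26150), HSFB1 (AT4G36990), HSFB2A (AT5G62020), HSFB2B (AT4G11660) and MBF1C (AT3G24500). Of these, 9 passed the filter on low counts and were tested, and HSP21 did not.

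The 20 samples fell into 6 groups, all in the Col-0 accession and all stratified in the cold before growth. They were grown on soil in a chamber at 22 and 20 °C with a photoperiod of 12 h, and taken as aboveground tissue at bolting. Plants that carried a PPD3-OX transgene, which overexpresses the PsbP-domain plastid protein PPD3, were labelled T+ and split by phenotype into T+ dwarf (n = 3) and T+ normal (n = 3). Gen1 dwarf plants (n = 3) came from the same parents as T+ plants and were null for the transgene. Gen2 plants were the null progeny of Gen1 and split into Gen2 dwarf (n = 5) and Gen2 large (n = 3), and untransformed wild type (WT, n = 3) was the control of all. The design text gives 3 replicates for each group, while 5 samples are labelled Gen2 dwarf, and all 5 were used. The labels give no heat treatment. WT 3 carries Col-1 as its ecotype and Col-0 as its source name. The sources used here do not give the promoter of the transgene, the number of independent lines, the harvest hour or the number of plants behind each sample. Every p-value therefore rests on how far the samples of a group differed.

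Gene counts came to 45728485 to 117753467 per sample. PPD3 (AT1G76450), the targeted gene, averaged 591 ± 189 CPM (counts scaled to a common library size) among dwarf T+ and 700 ± 97.4 CPM among normal T+ plants, against 99.0 to 143 CPM in the group means of Gen1 dwarf, Gen2 dwarf, Gen2 large and WT. The leaf genes used as tissue markers were abundant in every sample, 2 of the 3 root genes stayed out of the test, and the floral markers AP1, AP3, PI, AG, SEP3 and SEP1 summed to at most 4.56 CPM. T+ normal 1 stood apart from the other T+ normal plants on the first pair of principal components, so member and list calls that were lost or gained without it are given beside the results.

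When proteins unfold, heat stress factors (HSFs) bind heat shock elements, inverted repeats of the letters GAA, and raise the transcription of chaperones. Class A factors such as HSFA2 activate, and class B factors such as HSFB1, HSFB2A and HSFB2B mostly repress, while MBF1C is a heat-induced coactivator. HSP70 and HSP90.1 are inducible cytosolic chaperones that refold or hold client proteins, HSP101 pulls apart protein aggregates, HSP17.6II and HSP21 are small chaperones of the cytosol and the plastid, and HSFB1 is also known as TBF1, a factor in the switch from growth to defence that binds the TL1 letters GAAGAAGAA.

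The 500 bases before the start codon were searched for a heat shock element of 3 units (GAANNTTCNNGAA or TTCNNGAANNTTC, each the reverse complement of the other), a window chosen after the 250 bases before the annotated gene starts had given 1 element among the 10 genes. In the longer window 5 of the 10 genes held such an element, against 1.2% of 27443 nuclear protein-coding genes. HSFB1, MBF1C, HSP101, HSP21 and HSP17.6II held none. A shorter element of 2 units (GAANNTTC or TTCNNGAA) was in 10 of the 10 windows, against 33.9% of all windows. The element of 3 units was also in the windows of 5 of 15 other cytosolic HSP70, HSP90 and co-chaperone genes, 4 of 15 other small heat shock proteins and 2 of 17 other heat stress factors. The 5 elements are shown because their genes include both inducible chaperones described below. They also include HSFA2, which was not called between dwarf and non-dwarf groups in the fit on all samples. Capitals mark the element, read 5′ to 3′ on the gene's strand in the RefSeq sequence of TAIR10.1.
HSP70: ttactcgtGAACGTTCTCGAAagctcttt
HSP90.1: aacgaaaaGAACTTTCTGGAAttcgtttg
HSFA2: ttagtaacGAAGTTTCTGGAAcattgtct
HSFB2A: ctccatagGAAGTTTCTTGAAgcctaaaa
HSFB2B: tcctctcaGAACATTCTGGAActtcacaa
The HSP70 stretch lies at chr3:3993846-3993874 on the minus strand and that of HSP90.1 at chr5:21352254-21352282 on the plus strand. The stretches of HSFA2 (chr2:11135528-11135556), HSFB2A (chr5:24916058-24916086) and HSFB2B (chr4:7042670-7042698) are on the plus strand. Those of HSP90.1 and HSFA2 lie upstream of the annotated gene start, and those of HSP70, HSFB2A and HSFB2B lie between the annotated gene start and the start codon. The first base of the element stood 177 bases before the start codon in HSP70, 295 in HSP90.1, 320 in HSFA2, 146 in HSFB2A and 328 in HSFB2B. The TL1 letters (GAAGAAGAA or TTCTTCTTC) were in the windows of HSFB1, HSFB2A and HSFB2B, 3 of the 10, against 17.1% of all windows. A match of letters is a description of the sequence and not a site of binding.

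Levels in WT were compared between genes per length, as CPM per kb of exon. HSP90.1 stood at 18.7, HSFB1 at 15.6, HSP70 at 13.3, MBF1C at 9.31, HSFB2B at 4.94, HSP101 at 4.55, HSFA2 at 3.84 and HSFB2A at 2.27 CPM per kb. HSP17.6II reached 0.309 CPM per kb. HSP21, which is strongly induced by heat, was close to off: 15 of the 20 samples had no count, and the highest count was 7, in T+ dwarf 3. A count of 0 allows up to 3 counts, which was 0.0255 to 0.0656 CPM in these libraries, so no level of HSP21 could be compared. In tissue as a whole, fewer cells of a type and less RNA per cell cannot be told apart.

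**Figure D1:**
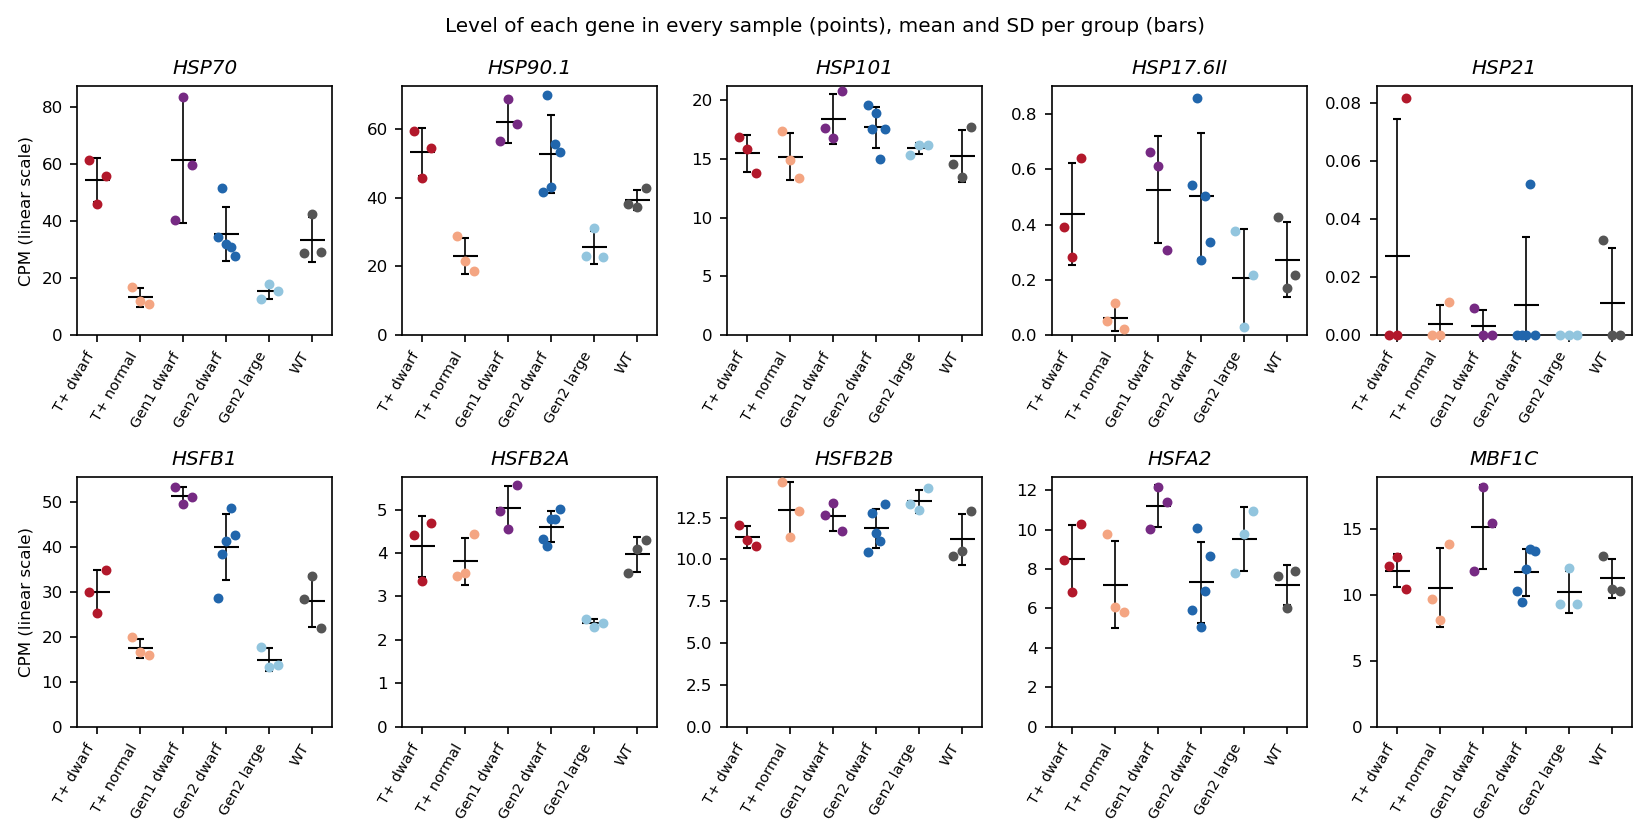
Level of each of the 10 genes in CPM on linear axes, with a point for each of the 20 samples and a bar for the mean ± SD of each group. HSP70, HSP90.1 and HSFB1 lie higher in T+ dwarf than in T+ normal and in Gen2 dwarf than in Gen2 large plants with no overlap, HSP101, HSFB2B, HSFA2 and MBF1C overlap in both, and HSP21 is near 0.

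HSP70, HSP90.1 and HSFB1 were higher in dwarf than in non-dwarf plants, both among transgene carriers and among the transgene-free Gen2 progeny. The inducible chaperone HSP70 had 61.4, 46.2 and 55.9 CPM in T+ dwarf plants, against 16.9, 11.8 and 10.9 CPM in T+ normal plants. In Gen2 dwarf plants it had 34.5, 51.8, 31.9, 31.1 and 27.6 CPM, against 12.6, 18.0 and 15.6 CPM in Gen2 large plants. The lowest dwarf sample stood above the highest non-dwarf sample in both pairs. This was a log2 difference of 2.05 ± 0.27 (SE) for T+ dwarf minus T+ normal (adjusted p = 0.000366, 4.13-fold higher) and of 1.20 ± 0.24 for Gen2 dwarf minus Gen2 large (adjusted p = 0.00469, 2.29-fold higher).

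HSP90.1 had 59.5, 45.7 and 54.3 CPM in T+ dwarf plants, against 28.8, 21.4 and 18.7 CPM in T+ normal plants. Its Gen2 dwarf samples held 41.6, 69.8, 43.0, 55.7 and 53.3 CPM, against 22.9, 31.1 and 22.6 CPM in Gen2 large plants. Neither pair overlapped, and the log2 differences were 1.21 ± 0.19 in T+ plants (adjusted p = 0.000748) and 1.04 ± 0.17 in Gen2 plants (adjusted p = 0.000986).

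Among the regulators, the class B factor HSFB1 had 29.8, 25.2 and 34.8 CPM in T+ dwarf plants, against 19.9, 16.5 and 15.9 CPM in T+ normal plants. In Gen2 dwarf plants HSFB1 had 28.5, 38.3, 41.4, 48.5 and 42.7 CPM, against 17.7, 13.3 and 13.6 CPM in Gen2 large plants. The groups did not overlap in either pair. HSFB1 was higher by a log2 difference of 0.78 ± 0.18 in T+ dwarf than in T+ normal plants (adjusted p = 0.00702) and by 1.42 ± 0.17 in Gen2 dwarf than in Gen2 large plants (adjusted p = 0.000125).

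The small chaperone HSP17.6II was rare and passed its test in the transgene carriers. Its counts were 32, 20 and 55 in T+ dwarf samples, against 4, 9 and 2 in T+ normal samples, which is 0.392, 0.281 and 0.641 CPM against 0.0498, 0.117 and 0.0228 CPM. The log2 difference was 2.79 ± 0.77 (adjusted p = 0.0204), and the call was lost without T+ dwarf 3 (adjusted p = 0.0714), T+ normal 1 (adjusted p = 0.0708) or T+ normal 3 (adjusted p = 0.0827). In Gen2 dwarf plants HSP17.6II held 0.543, 0.859, 0.273, 0.502 and 0.337 CPM, against 0.378, 0.0295 and 0.216 CPM in Gen2 large plants, with overlap and a log2 difference of 1.25 ± 0.64 (adjusted p = 0.199).

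HSFB2A, a class B repressor, was called in Gen2 and not among transgene carriers. It held 4.32, 4.16, 4.79, 4.78 and 5.03 CPM in Gen2 dwarf plants, against 2.47, 2.29 and 2.39 CPM in Gen2 large plants, a log2 difference of 0.95 ± 0.15 with no overlap (adjusted p = 0.000808). In T+ dwarf plants it held 4.41, 3.36 and 4.70 CPM, against 3.46, 3.55 and 4.43 CPM in T+ normal plants, with overlapping ranges and a log2 difference of 0.12 ± 0.16 (adjusted p = 0.654). The difference between these contrasts was itself tested and came to -0.83 ± 0.22 on the log2 scale, T+ minus Gen2 (adjusted p = 0.0913), so HSFB2A was not called different between them by edgeR.

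The other tested genes were called neither in T+ dwarf against T+ normal nor in Gen2 dwarf against Gen2 large. The activator HSFA2 had 8.44, 6.83 and 10.3 CPM in T+ dwarf samples, against 9.79, 6.05 and 5.81 CPM in T+ normal plants. In Gen2 dwarf plants it had 5.93, 10.08, 5.06, 6.87 and 8.67 CPM, against 7.78, 9.79 and 10.97 CPM in Gen2 large plants. The ranges overlapped in both pairs, and the log2 differences pointed in opposite directions, 0.24 ± 0.24 in T+ (adjusted p = 0.544) and -0.38 ± 0.21 in Gen2 plants (adjusted p = 0.244). The disaggregase HSP101 differed by 0.03 ± 0.13 in T+ and 0.16 ± 0.12 in Gen2 plants on the log2 scale, MBF1C by 0.17 ± 0.20 and 0.19 ± 0.18, and HSFB2B by -0.19 ± 0.13 and -0.19 ± 0.11. All 3 overlapped between dwarf and non-dwarf plants in both pairs, with adjusted p-values of 0.276 or above. HSFB2B, MBF1C and HSP101 overlap annotated genes on the opposite strand, and as the kit used leaves strand unmarked, their counts are uncertain.

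In all, 4 of the 9 tested members were called in T+ dwarf against T+ normal, where 15.0% of all tested genes were called. In Gen2 dwarf against Gen2 large 4 of 9 were called, against 13.5% of all genes, and all 8 calls were higher in dwarf plants. The median log2 difference over the 9 members was 0.24 in T+ and 0.95 in Gen2 plants, against 0.01 and 7.6e-05 over all genes. Of the difference between both contrasts, 0 of 9 members were called (0.654% of all genes). Of the 9, 3 had an unadjusted p under 0.05, against 12.6% of all genes. DESeq2 called 1, HSFB2A, where it called 2.98% of all genes.

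Gen1 dwarf plants, which lacked the transgene, were set against the T+ normal plants of the same parentage. Of the 9 members 4 were called, all higher, against 19.5% of all genes. This contrast shares its T+ normal samples with the one above. HSP70 had 40.3, 83.8 and 59.9 CPM in Gen1 dwarf plants, against the T+ normal values above, a log2 difference of 2.22 ± 0.27 (adjusted p = 4.86e-05). The other calls were HSP90.1 at 1.43 ± 0.19, HSFB1 at 1.56 ± 0.18 and HSP17.6II at 3.05 ± 0.77, with adjusted p-values of 7.59e-05, 2.13e-05 and 0.009. HSFA2 (0.64 ± 0.24, adjusted p = 0.0724), MBF1C (0.52 ± 0.20, adjusted p = 0.0714) and HSFB2A (0.40 ± 0.16, adjusted p = 0.0918) were outside the threshold. The samples of HSFA2 and HSFB2A did not overlap between the groups, while those of MBF1C did. HSFA2 was called without T+ normal 1 (adjusted p = 0.0213), and MBF1C without T+ normal 3 (adjusted p = 0.0162) or Gen1 dwarf 1 (adjusted p = 0.0379). Scaling by library size alone called 8 of the 9, where it called 22.0% of all genes and moved the median of all genes by 0.13 on the log2 scale.

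**Figure D2:**
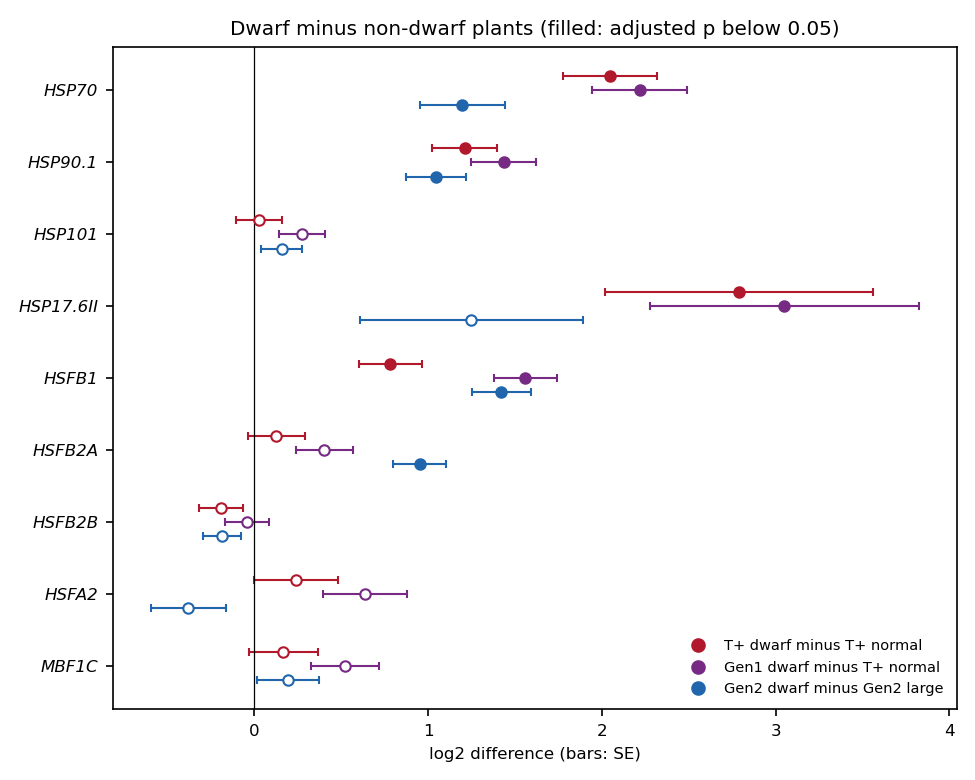
Log2 difference of each tested gene for T+ dwarf minus T+ normal, Gen1 dwarf minus T+ normal and Gen2 dwarf minus Gen2 large plants. Points give the estimate, bars the SE, and filled points an adjusted p below 0.05, with HSP70, HSP90.1 and HSFB1 filled in all 3 contrasts and HSP101, HSFB2B, HSFA2 and MBF1C in none.

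Against WT, 2 members were called lower in each non-dwarf group, and the dwarf groups had 1 call in all. HSP70 in WT held 28.7, 42.6 and 29.1 CPM, above every T+ normal sample. The log2 difference was -1.34 ± 0.27 for T+ normal minus WT (adjusted p = 0.0194). The call was lost without T+ normal 2 (adjusted p = 0.0655), T+ normal 3 (adjusted p = 0.058) or WT 2 (adjusted p = 0.118). HSP90.1, which held 38.0, 37.2 and 42.7 CPM in WT, fell by 0.77 ± 0.19 on the log2 scale in T+ normal plants (adjusted p = 0.0462). That call was lost without any one of 14 samples (adjusted p from 0.0501 to 0.136), and held without T+ normal 1, Gen2 dwarf 1, 2 or 3, or Gen2 large 2 or 3. These were the 2 of 9 members called, against 1.34% of all genes. That share rests on single samples: the 290 genes called in all became 54 without T+ normal 1, 36 without WT 2, 437 without Gen2 dwarf 1, 463 without WT 1 and 559 without WT 3. A fit on the T+ normal and WT samples alone called 0 members and 52 genes in all. HSFB1 stood at -0.68 ± 0.18 (adjusted p = 0.0621) and was called without Gen2 dwarf 1 (adjusted p = 0.0379) or WT 3 (adjusted p = 0.028).

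Gen2 large plants were lower than WT in both class B factors that differed between Gen2 dwarf and large plants. HSFB1 held 28.3, 33.5 and 21.9 CPM in WT, and Gen2 large minus WT was -0.91 ± 0.18 on the log2 scale with no overlap (adjusted p = 0.0244). The call was lost without Gen2 large 2 (adjusted p = 0.128), Gen2 large 3 (adjusted p = 0.112) or WT 2 (adjusted p = 0.158). HSFB2A, at 3.53, 4.09 and 4.31 CPM in WT, gave -0.74 ± 0.17 with no overlap (adjusted p = 0.0403). Its call was lost without any one of 10 samples, namely T+ dwarf 1, Gen1 dwarf 1 or 3, Gen2 dwarf 3 or 4, Gen2 large 1, 2 or 3, or WT 2 or 3 (adjusted p from 0.0518 to 0.169). These were 2 of 9 members, against 0.963% of all genes. The 209 genes called in all became 42 without Gen2 large 1, 10 without Gen2 large 2, 13 without Gen2 large 3, 19 without WT 2 and 326 without WT 1. A fit on the Gen2 large and WT samples alone called neither, and called HSP70. HSP70 was just outside the threshold at -1.12 ± 0.26 (adjusted p = 0.0505), with 12.6, 18.0 and 15.6 CPM in Gen2 large plants, all below WT. It was called without T+ normal 1, Gen1 dwarf 1, Gen1 dwarf 2, Gen2 dwarf 2 or WT 1 (adjusted p from 0.0281 to 0.0492).

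Of the dwarf groups, Gen1 dwarf alone had a called member against WT, HSFB1, and 2.01% of all genes were called. HSFB1 had 53.3, 49.6 and 50.9 CPM in Gen1 dwarf plants, all above the WT samples, with a log2 difference of 0.88 ± 0.18 (adjusted p = 0.0162). The call was lost without Gen1 dwarf 1 (adjusted p = 0.0616), WT 1 (adjusted p = 0.0811) or WT 3 (adjusted p = 0.0673). All 9 members had positive estimates in this contrast, with a median of 0.64 against 0.00122 over all genes. Of the 9, 6 had an unadjusted p under 0.05, against 17.1% of all genes. HSP90.1 (0.66 ± 0.19, adjusted p = 0.068) was called without Gen2 dwarf 2 (adjusted p = 0.0472). HSP70 gave 0.87 ± 0.26 (adjusted p = 0.0898), and DESeq2 called both beside HSFB1, where it called 5.29% of all genes.

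T+ dwarf against WT had 0 of 9 members called (0.0507% of all genes), and 0 by DESeq2 (0.599% of all genes). An unadjusted p under 0.05 was found for 2 members, HSP70 (0.70 ± 0.26) and HSP90.1 (0.44 ± 0.19), and for 11.9% of all genes. Gen2 dwarf against WT also had 0 of 9 called (0.0968% of all genes), and 0 by DESeq2 (1.68% of all genes). There an unadjusted p under 0.05 was found for 2 members, HSFB1 (0.51 ± 0.16) and HSP90.1 (0.42 ± 0.17), and for 13.1% of all genes. As in Gen1 dwarf, all 9 estimates were positive in both contrasts. The medians were 0.10 in T+ dwarf and 0.22 in Gen2 dwarf, against -0.01 and 0.005 over all genes. The 5 contrasts with WT share the 3 WT samples.

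**Figure D3:**
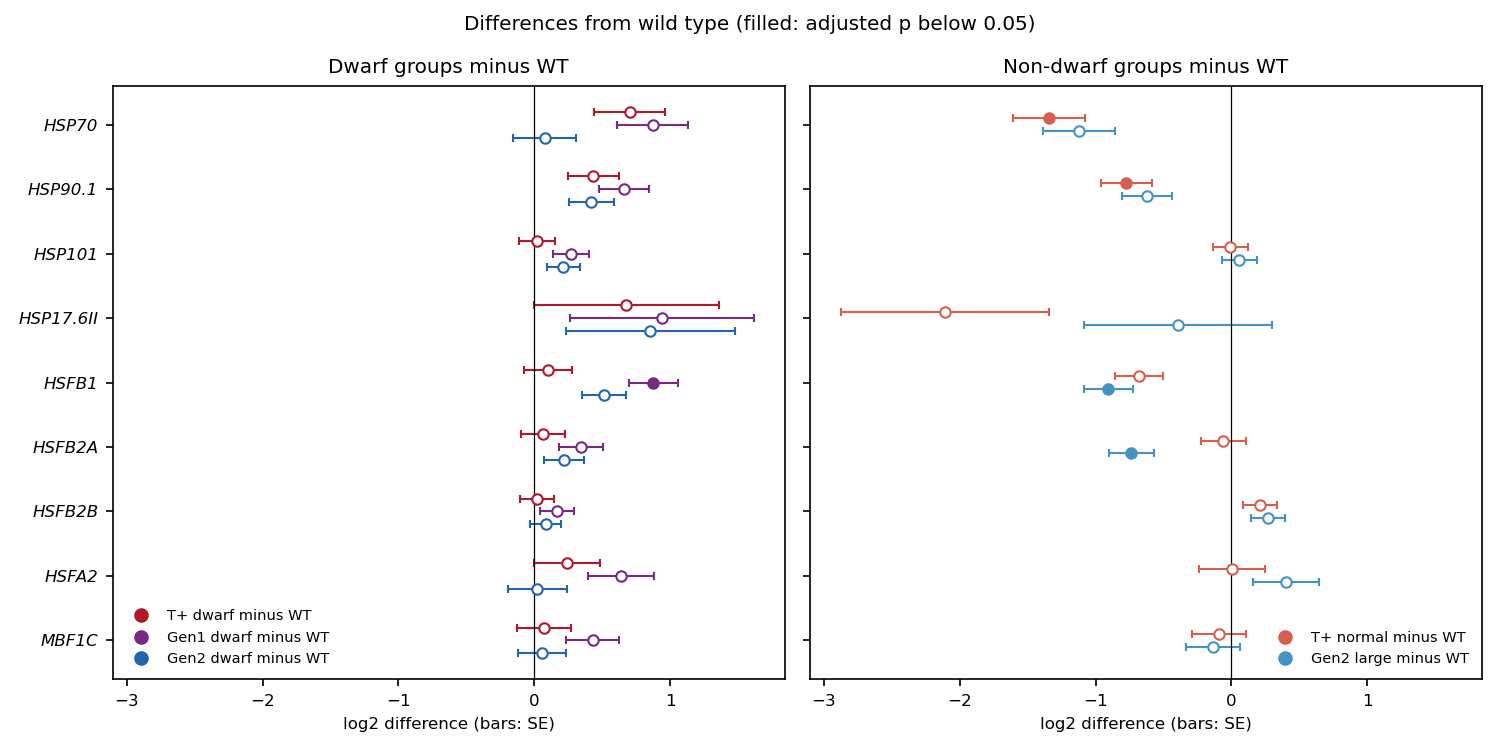
Log2 difference from WT of each tested gene, with the dwarf groups (T+ dwarf, Gen1 dwarf, Gen2 dwarf) on the left and the non-dwarf groups (T+ normal, Gen2 large) on the right. Bars are SEs and filled points have an adjusted p below 0.05, which holds for HSFB1 in Gen1 dwarf, for HSP70 and HSP90.1 in T+ normal, and for HSFB1 and HSFB2A in Gen2 large plants.

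The dwarf groups were also compared among themselves. Gen1 dwarf against T+ dwarf had 0 of 9 members called (0.00461% of all genes) and 1 with an unadjusted p under 0.05 (4.85% of all genes). This was HSFB1, whose samples did not overlap between the groups (0.78 ± 0.18, adjusted p = 0.357). DESeq2 called HSFB1 alone of the members here, and 0.21% of all genes. Gen2 dwarf against Gen1 dwarf had 0 of 9 called (0.235% of all genes) and 4 with an unadjusted p under 0.05 (9.22% of all genes). These were HSP70, HSFA2, HSFB1 and MBF1C. All 9 estimates were negative, HSP70 with the most (-0.80 ± 0.23, adjusted p = 0.17). HSP70 was called by DESeq2 (1.48% of all genes), and by edgeR without Gen2 dwarf 2 (adjusted p = 0.0445, 0.719% of all genes).

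A test for any difference among the 6 groups called 5 of the 9 members, against 21.2% of all genes. These were HSFB1 (adjusted p = 1.37e-05), HSP70 (7.13e-05), HSP90.1 (8.25e-05), HSFB2A (0.00189) and HSP17.6II (0.0469). The call of HSP17.6II was lost without any one of 16 of the 20 samples (adjusted p from 0.0501 to 0.137), T+ normal 1 and T+ normal 3 among them, and with a replicate block. In order of mean level, HSP70 ran 61.3 ± 21.8 CPM in Gen1 dwarf, 54.5 ± 7.72 in T+ dwarf, 35.4 ± 9.51 in Gen2 dwarf, 33.5 ± 7.92 in WT, 15.4 ± 2.695 in Gen2 large and 13.2 ± 3.25 in T+ normal plants. The ranges of neighbours in that order overlapped except between WT and Gen2 large. The same order and the same single gap between WT and Gen2 large held for HSP90.1. For HSFB1 the neighbours parted between Gen1 dwarf and Gen2 dwarf, and between WT and T+ normal, and for HSFB2A between T+ normal and Gen2 large. The neighbours of HSFA2, HSFB2B, MBF1C, HSP101 and HSP17.6II all overlapped.

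HSFA2 was also compared with the 8 other tested members sample by sample, since it is the heat-inducible activator of the set. Over the 20 samples no pair passed a permutation test adjusted over the 8 pairs, the highest being HSFB2B (r = 0.51, rho = 0.49, adjusted p = 0.173 and 0.141). With each group's mean subtracted and values permuted within groups, HSP90.1 moved with HSFA2 (r = 0.78, rho = 0.74, adjusted p = 0.0262 and 0.044). Without Gen2 dwarf 3 and Gen2 dwarf 2, the samples farthest in HSFA2, r was 0.69. HSP70 had r = 0.47 on the same scale (adjusted p = 0.15). Genes outside the members were not compared with HSFA2 in this way, so how usual such a correlation is was not tested.

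**Figure D4:**
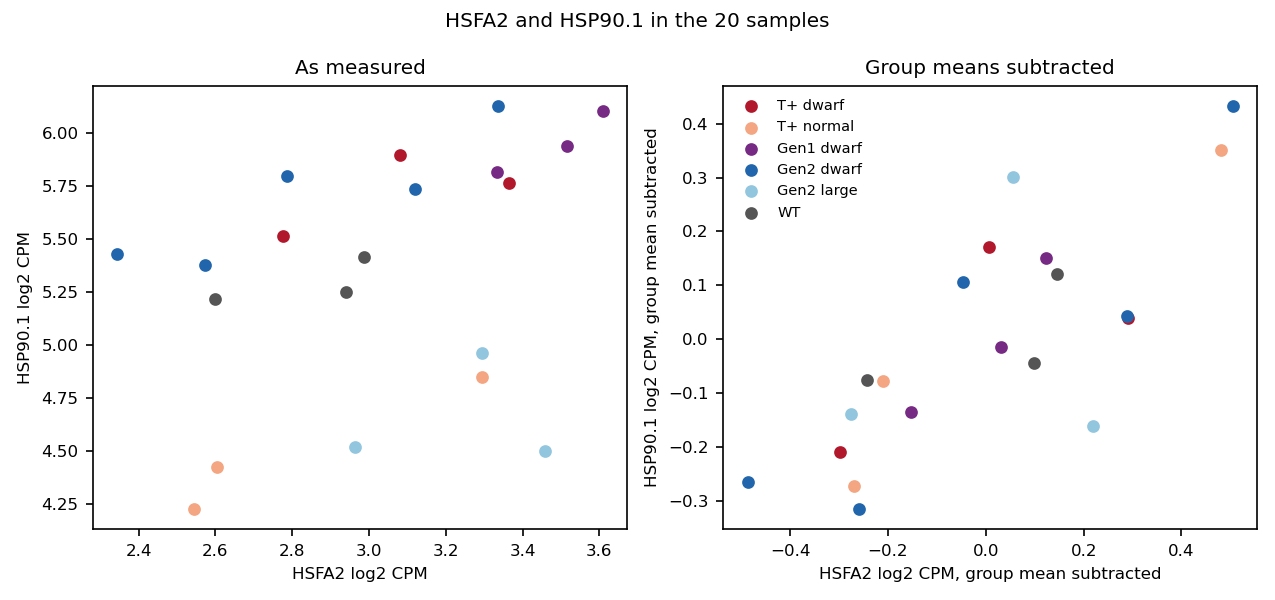
HSFA2 against HSP90.1 in log2 CPM, a point for each of the 20 samples coloured by group, as measured on the left and with group means subtracted on the right. On the left the T+ normal and Gen2 large samples lie low in HSP90.1 at like HSFA2 levels, and on the right the points rise together (r = 0.78).

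Other genes of the chaperone system were read from lists chosen with earlier results of these data known, and their counts stand against the same shares of all genes, 15.0% for T+ dwarf against T+ normal, 13.5% for Gen2 dwarf against Gen2 large and 19.5% for Gen1 dwarf against T+ normal. The fit of the lists without T+ normal 1 was chosen after seeing the data. The endoplasmic reticulum list held 13 tested genes, folding-stress factors beside chaperones. Of the 13, 9 were called higher in Gen2 dwarf than in Gen2 large plants and 4 in T+ dwarf than in T+ normal plants, none lower. All 13 estimates were positive in both, with medians of 0.51 and 0.42. In Gen1 dwarf against T+ normal 3 of 13 were called higher, near the share of all genes. Without T+ normal 1 the T+ count was 3 and the Gen1 count 2, and BIP3 was no longer called in either (adjusted p = 0.135 and 0.141). BIP3 (AT1G09080), an inducible HSP70 of the endoplasmic reticulum, averaged 42.8 ± 13.3 CPM in Gen2 dwarf and 10.4 ± 3.88 CPM in Gen2 large plants, a log2 difference of 2.04 ± 0.39 (adjusted p = 0.00335). SHD (AT4G24190), the HSP90 of that compartment and the most abundant gene of its list, averaged 1749 ± 374 CPM in Gen2 dwarf and 820 ± 39.3 CPM in Gen2 large plants. In T+ plants SHD averaged 1588 ± 294 CPM in dwarf and 807 ± 179 CPM in normal plants. The co-chaperone ATERDJ3A (AT3G08970) and the disulfide isomerase PDIL1-2 (AT1G77510) were called in both pairs, and CNX1, a lectin chaperone, and ATERDJ3B in Gen2. The TL1 letters were in the start-codon windows of 6 of these 13 genes, against 17.1% of all windows. In the 250 bases before the annotated gene starts, 2 of the 13 held them, against 4.13%. The heat shock element of 3 units was in 1 of the 13 start-codon windows, against 1.2%.

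The other small heat shock proteins were mixed and mostly rare. In T+ dwarf against T+ normal, 2 of 13 tested were higher and 1 lower, and in Gen2 dwarf against Gen2 large 2 were higher, which is near the share of all genes in Gen2. Without T+ normal 1, AT5G51440 alone was called in T+ dwarf against T+ normal, and HSP17.4 (adjusted p = 0.0897) and AT4G21870 (adjusted p = 0.0574) were not. HSP17.4 (AT3G46230) averaged 0.36 ± 0.16 CPM in T+ dwarf plants and 0.09 ± 0.01 CPM in T+ normal plants, a log2 difference of 1.93 ± 0.61 (adjusted p = 0.0395), and it overlaps other annotated genes. The small heat shock protein AT5G51440 averaged 2.15 ± 0.47 CPM in T+ dwarf plants and 0.67 ± 0.12 CPM in T+ normal plants (1.67 ± 0.31, adjusted p = 0.00158), and was lower than WT in T+ normal (-1.68 ± 0.31) and in Gen2 large plants (-1.27 ± 0.30). The T+ normal call against WT was lost without T+ normal 1 (adjusted p = 0.0532). AT4G21870 went the other way, lower in T+ dwarf than in T+ normal plants (-1.02 ± 0.30). Gen1 dwarf against T+ normal added AT1G53540, HSP17.6A and AT1G07400, with 5 of 13 higher, and without T+ normal 1 the count was 3, with AT1G53540 and HSP17.6A no longer called. The most abundant gene of the list, AT2G19310, averaged 44.4 CPM and was called in no contrast of 2 groups.

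Of 15 other cytosolic HSP70, HSP90 and co-chaperone genes, 2 were called higher in each pair, Hsp70-2 (AT5G02490) and the immunophilin AT5G48570, a count near the share of all genes. Without T+ normal 1 neither was called in T+ dwarf against T+ normal (adjusted p = 0.128 and 0.06). Hsp70-2 averaged 111 ± 18.8 CPM in Gen2 dwarf and 66.8 ± 11.3 CPM in Gen2 large plants. AT5G48570 averaged 27.0 ± 5.19 CPM in Gen2 dwarf and 15.6 ± 1.18 CPM in Gen2 large plants, a log2 difference of 0.79 ± 0.16 (adjusted p = 0.0033). BAG6 and Fes1A joined them in Gen1 dwarf against T+ normal, where AT5G48570 and Fes1A were still called without T+ normal 1. The constitutive HSC70-1, at 3253 CPM over all samples, was called in no contrast of 2 groups. The files list 0 reads placed at more than 1 site in every sample and do not say how such reads were handled, so near-identical HSP70 and HSP90 copies are uncertain.

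Of the 17 other heat stress factors, 15 were tested and few were called, 2 in T+ and 1 in Gen2 plants, near and below the shares of all genes. HSFC1 (0.94 ± 0.24) and HSFA1E (0.61 ± 0.20) were higher in T+ dwarf than in T+ normal plants, HSFA8 (0.51 ± 0.15) was higher in Gen2 dwarf than in Gen2 large plants, and no factor was called in both. Without T+ normal 1, HSF1 (AT4G17750) was called as well in T+ dwarf against T+ normal (adjusted p = 0.025) and alone in Gen1 dwarf against T+ normal (adjusted p = 0.0235). The most abundant, HSF A4A, averaged 52.7 CPM over all samples. Of 4 tested genes that act with these factors in heat, GolS1 (AT2G47180), which makes the protective sugar galactinol and is a known HSF target, was called. GolS1 averaged 53.4 ± 19.5 CPM in T+ dwarf plants and 5.90 ± 1.88 CPM in T+ normal plants (3.18 ± 0.51, adjusted p = 0.00105), and 43.7 ± 29 CPM in Gen2 dwarf and 8.47 ± 1.17 CPM in Gen2 large plants (2.36 ± 0.47, adjusted p = 0.00449). It was lower in T+ normal than in WT plants (-2.08 ± 0.49, adjusted p = 0.049), a call lost without T+ normal 1 (adjusted p = 0.243). The most abundant of this list, HSBP, a small protein that binds HSFs, averaged 68.2 CPM.

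Of 11 plastid and mitochondrial chaperones, 3 were called lower and 1 higher in T+ dwarf than in T+ normal plants, with 6 of 11 estimates positive and a median of 0.07. CPN60B averaged 364 ± 10.3 CPM in T+ dwarf plants and 828.7 ± 97.4 CPM in T+ normal plants (-1.19 ± 0.20, adjusted p = 0.00111). CPN60A, the most abundant of the list, and cpHsc70-1 were lower as well (-0.65 ± 0.20 and -0.51 ± 0.14), while the mitochondrial MTHSC70-2 was higher (0.67 ± 0.17). The calls of CPN60A (adjusted p = 0.118) and cpHsc70-1 (adjusted p = 0.0923) were lost without T+ normal 1. The same 4 genes were called in the same directions in Gen1 dwarf against T+ normal, and in Gen2 dwarf against Gen2 large plants 0 of 11 tested were called by edgeR. CPN60B, cpHsc70-1, ATERDJ3A, GolS1, HSFC1 and Fes1A overlap other annotated genes and are uncertain. Against WT, the only calls among the 6 chaperone and factor lists were AT5G51440 and GolS1, given above.

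**Figure D5:**
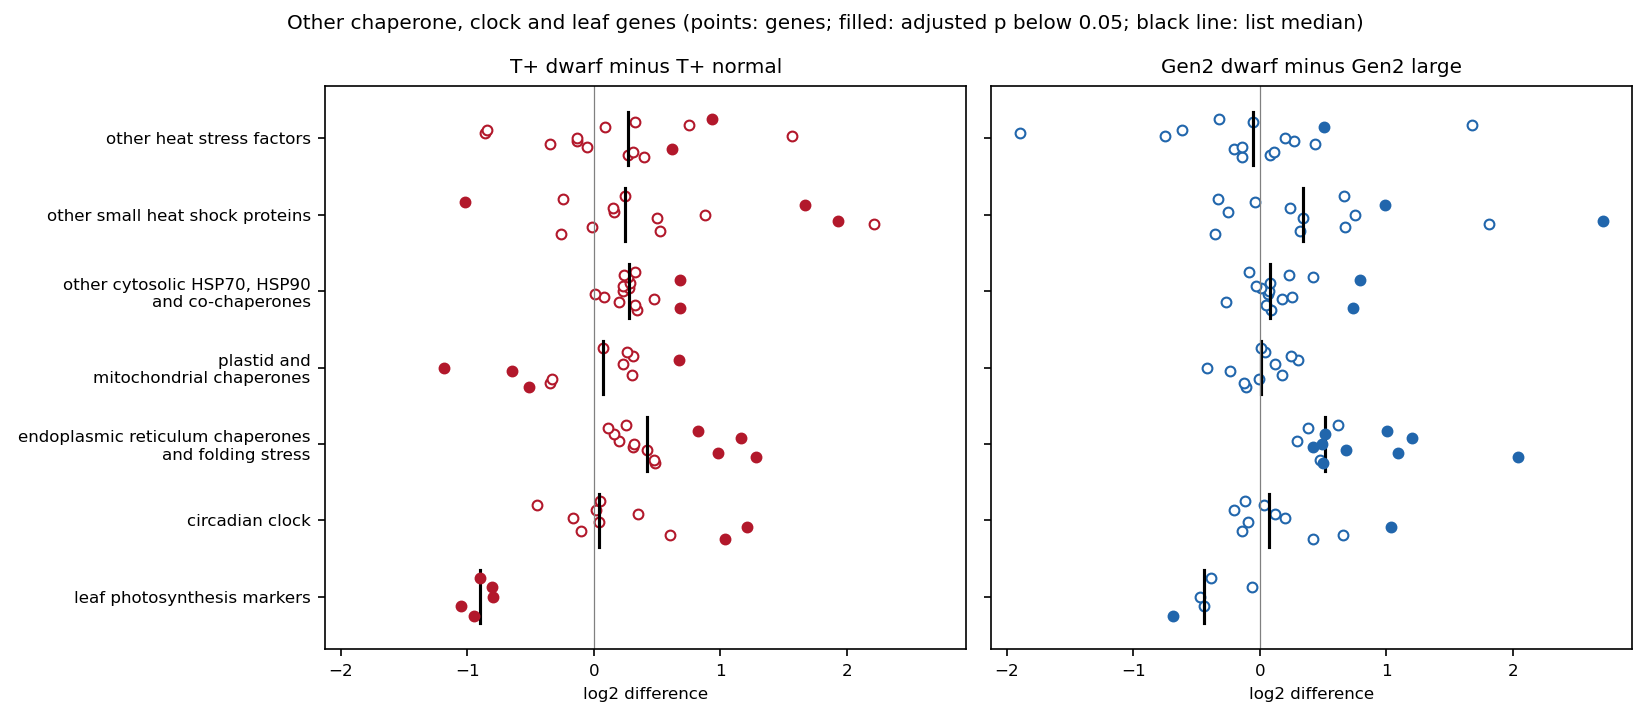
Log2 differences of the genes of 7 lists for T+ dwarf minus T+ normal (left) and Gen2 dwarf minus Gen2 large plants (right), a point for each tested gene, filled where the adjusted p is below 0.05, and a black line at each list's median. The endoplasmic reticulum genes all lie right of 0 in both panels, and the leaf photosynthesis markers lie left of it.

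Leaf markers and a few clock genes differed beside these results. The 5 leaf photosynthesis markers summed to 16482 to 19319 CPM in T+ dwarf plants and 27599 to 37166 CPM in T+ normal samples, to 16474 to 21226 CPM in Gen2 dwarf and 21630 to 34548 CPM in Gen2 large samples, and to 14551 to 16900 CPM in Gen1 dwarf and 18295 to 23509 CPM in WT samples. All 5 were called lower in T+ dwarf and in Gen1 dwarf than in T+ normal plants, and 1, RBCS1A, in Gen2 dwarf than in Gen2 large plants. Leaving out T+ normal 1, 3 of the 5 were called in T+ dwarf against T+ normal. Of 10 clock genes, CCA1 (1.03 ± 0.21) and PRR9 (1.21 ± 0.32) were higher in T+ dwarf than in T+ normal plants, and PRR9 (1.03 ± 0.29) in Gen2 dwarf than in Gen2 large plants. These clock counts were near the shares of all genes called, 15.0% in the T+ pair and 13.5% in the Gen2 pair. The T+ call of PRR9 was lost without T+ normal 1 (adjusted p = 0.0627). CCA1 (0.88 ± 0.20) and PRR9 (1.25 ± 0.32) were also higher in Gen1 dwarf than in T+ normal plants, again near the share of all genes (19.5%). PRR9 (-1.44 ± 0.32) and PRR5 (-0.55 ± 0.13) were lower in Gen2 large than in WT plants, where 0.963% of all genes were called. The floral markers summed to 1.78 to 4.56 CPM in T+ dwarf plants and 1.26 to 1.93 CPM in T+ normal samples, and to 0.896 to 2.07 CPM in Gen2 dwarf and 1.81 to 2.92 CPM in Gen2 large samples. Of these 6 markers, AP1, AP3 and PI were called higher and AG lower in T+ dwarf than in T+ normal plants, and AG was lower in Gen2 dwarf than in Gen2 large plants. The floral calls in T+ dwarf against T+ normal without T+ normal 1 were SEP3, higher, and AG, lower. The seed markers summed to at most 0.714 CPM, and CRA1 was lower in T+ dwarf than in T+ normal plants (-4.96 ± 1.22). The root markers, nearly all PYK10, summed to 28.97 to 43.4 CPM in T+ dwarf plants and 0.784 to 96.6 CPM in T+ normal samples, and the 1 tested was not called. The part of leaf share, clock phase or flower share in the heat gene differences was not tested. Without T+ normal 1, the calls of HSP70, HSP90.1 and HSFB1 in T+ dwarf against T+ normal held.

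The genes whose log2 CPM most resembled the mean of the 4 tested chaperones over the 20 samples were RLP53 (AT5G27060, Pearson r = 0.96), ERD2 (AT1G29330, 0.95), GTR1 (AT3G47960, 0.94), RAP2.6 (AT1G43160, 0.94) and CYP94B3 (AT3G48520, 0.94). For the mean of the 5 regulators they were PTF1 (AT3G02150, 0.89), ABI1 (AT4G26080, 0.86), EFE (AT1G05010, 0.85), AT1G15010 (0.84) and AER (AT5G16970, 0.83).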

How the data were processed

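The authors deposited raw counts per gene and sample, whole numbers for 34262 genes. Per the submitters' processing notes, Trim Galore 0.4.1 and STAR 2.7.0a were used, with TAIR10 as the genome build. The sources used here name no counting program, annotation release or strand setting. The 5 lines that name no gene were dropped; the no-feature line equalled 0.776 to 1.14% of the gene total. No 2 samples of a group agreed within sampling noise.

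Levels are CPM on TMM-scaled library sizes, computed here. Genes passing edgeR's filterByExpr (minimum count 10) numbered 21703, and 1 quasi-likelihood model (edgeR 4.0.16, R 4.3.3, robust) with a term for each of 6 groups gave every log2 difference, its SE and its p, adjusted by Benjamini-Hochberg over all tested genes and called at 0.05. The fit was also run on counts simulated from its own dispersions, which checks the code and cannot test the calls made here. Correlations used log2 CPM (prior count 2) and two-sided permutation tests with 100000 resamples. Alternatives were RLE scaling, library size alone, no filter, a filter of 1 CPM in 3 samples, DESeq2 1.42.0, a replicate block, only the groups compared, and leaving out each sample (for the lists, T+ normal 1, chosen after seeing the data). The floors given for HSP21 cover counting error only.

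The 10 members and all lists were chosen with earlier results of these data known. Named are all members, called list genes (at most 6 a list and contrast), each list's most abundant gene, the 5 genes most like each member class, and PPD3. Symbols come from the RefSeq table, which held 32548 of the loci.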

Additional observations from a re-analysis of the deposited data

Results flagged for a closer look

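With 5 samples, only Gen2 dwarf was large enough for a check of single samples that stand far from the rest, and chance gives about 1 such sample in 20 groups. HSP70 in Gen2 dwarf 2, at 51.8 CPM, stood apart from the other Gen2 dwarf samples at 27.6 to 34.5 CPM. The Gen2 dwarf 2 library was also the shallowest, with 45728485 gene counts. HSP21 in Gen2 dwarf 4, at 0.0520 CPM, was flagged as the only Gen2 dwarf sample with any count, and that value is 3 counts. With the other Gen2 dwarf samples at 0, any count would have been flagged. A count of 0 allows up to 3 counts, so nothing is read from this flag.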

How the results depend on the processing

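The calls of HSP70, HSP90.1, HSFB1 and HSFB2A in Gen2 dwarf against Gen2 large, and of HSP70, HSP90.1 and HSFB1 in T+ dwarf against T+ normal and Gen1 dwarf against T+ normal, held under every alternative run. The number of members called changed in these and other contrasts. With a 1 CPM filter, which left HSP17.6II untested, it was 3 in place of 4 in T+ dwarf against T+ normal and in Gen1 dwarf against T+ normal. In the test of any difference it was then 4 in place of 5. Without 1 sample, it was 3 to 4 for T+ dwarf against T+ normal and 4 to 5 for Gen1 dwarf against T+ normal. For T+ normal against WT (2 called) it was 3 with library size alone and with DESeq2, 1 without a filter, 1 with a replicate block and 0 with only the groups compared. For Gen1 dwarf against WT (1 called) it was 2 with library size alone, 3 with DESeq2 and 2 with only the groups compared. For Gen2 large against WT (2 called) it was 3 with library size alone and with a 1 CPM filter, 4 with DESeq2 and 1 with only the groups compared. DESeq2 called 1 member each in Gen1 dwarf against T+ dwarf, in Gen2 dwarf against Gen1 dwarf and for the difference between the dwarf contrasts. It called 0.21%, 1.48% and 2.98% of all genes there. Library size alone called 8 members in Gen1 dwarf against T+ normal (4 called). Library size alone moved the median of all genes by 0.13 in that contrast, 0.11 in T+ dwarf against T+ normal and -0.10 in T+ normal against WT. Subtracting group means gave 1 called correlation of HSFA2, with HSP90.1, in place of 0. Leaving out 1 sample gave 0 to 3 members for T+ normal against WT, 0 to 2 for Gen1 dwarf against WT, 0 to 3 for Gen2 large against WT, and 0 to 1 for Gen2 dwarf against Gen1 dwarf. Over all genes DESeq2 called 119 in place of 11 for T+ dwarf against WT, 1156 in place of 290 for T+ normal, 1134 in place of 437 for Gen1 dwarf, 368 in place of 21 for Gen2 dwarf and 743 in place of 209 for Gen2 large. Leaving out 1 sample, genes called in all ran from 1927 (without T+ dwarf 1; 1929 without T+ normal 1) to 3803 for T+ dwarf against T+ normal, from 1186 to 3368 for Gen2 dwarf against Gen2 large (1186 without Gen2 large 3, 1463 without Gen2 large 1, 1582 without Gen2 large 2, 1943 without Gen2 dwarf 4), from 2942 to 4682 for Gen1 dwarf against T+ normal, from 71 (without WT 1) to 681 (without WT 2) for Gen1 dwarf against WT, from 4 to 207 for T+ dwarf against WT and from 8 to 75 for Gen2 dwarf against WT.

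Of 45 pairs of same-numbered samples, 8 deviated together with a correlation above 0.1, and 7 of 18 samples were closest to their own number. Different-numbered pairs were not set beside these counts, which therefore cannot decide whether the numbers pair the samples. The replicate block is only an alternative. Besides T+ normal against WT, it moved Gen2 large against WT to 3 members and the test of any difference to 4, without HSP17.6II. Over all genes it called 1356 in place of 2920 in Gen2 dwarf against Gen2 large.

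Signs turned only for differences that were not called, most of them small. HSFA2 in T+ normal against WT turned with library size alone (-0.0903) and a 1 CPM filter (-0.0032), and HSP101 there with RLE scaling (0.0042), no filter (0.00599) and DESeq2 (0.0046). The replicate block turned HSFA2 (-0.045) and MBF1C (-0.093) in Gen2 dwarf against WT, and HSP101 (0.022) and HSP17.6II (0.086) in Gen2 dwarf against Gen1 dwarf. HSFB2B in Gen1 dwarf against T+ normal turned with library size alone (0.061). For the difference between the dwarf contrasts, HSFB2B turned with library size alone (0.096) and the block (0.027), and MBF1C likewise (0.064 and 0.12). The correlation of HSFA2 with MBF1C turned with group means subtracted (-0.10).

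Without 1 sample, T+ dwarf minus WT ran from -0.045 to 0.27 for HSFB1, -0.020 to 0.21 for HSFB2A, -0.045 to 0.14 for HSFB2B and -0.046 to 0.14 for HSP101. T+ normal minus WT ran from -0.28 to 0.17 for HSFA2, -0.16 to 0.014 for HSFB2A, -0.31 to 0.079 for MBF1C and -0.11 to 0.13 for HSP101. Gen2 dwarf minus WT ran from -0.12 to 0.13 for HSFA2, -0.0081 to 0.16 for MBF1C and -0.099 to 0.28 for HSP70, and Gen2 large minus WT from -0.013 to 0.18 for HSP101 and -1.21 to 0.14 for HSP17.6II. T+ dwarf minus T+ normal ran from -0.0043 to 0.39 for MBF1C and -0.084 to 0.13 for HSP101. Gen1 dwarf minus T+ dwarf ran from -0.14 to 0.37 for HSP70 and -0.00086 to 0.62 for HSP17.6II, and Gen1 dwarf minus T+ normal from -0.16 to 0.054 for HSFB2B. Gen2 dwarf minus Gen1 dwarf ran from -0.11 to 0.054 for HSP101 and -0.35 to 0.12 for HSP17.6II. The difference between the dwarf contrasts ran from -0.095 to 0.093 for HSFB2B and -0.19 to 0.20 for MBF1C.

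Limits: groups of 3, an unknown harvest hour and no mark of strand limit these comparisons, HSP17.6II rests on 2 to 70 counts, and HSP21 could not be compared. The cause of these changes was not tested.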
